A study of Mus musculus with 6 samples.

Results

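A set of 10 genes that mark the epithelium of the choroid plexus was followed in RNA sequencing libraries of the mouse hippocampus. The 10 genes are Ttr, Folr1, Kl, Clic6, Slc4a5, Otx2, Prlr, Aqp1, Cldn2 and Enpp2. They were taken by gene symbol from the deposited table of 16060 rows, and all 10 were found, each on 1 row. They were selected on their log2 difference between the MA and Control libraries of this table, together with their known place in this epithelium, so their differences are descriptions, and no p-value is given for any of them. Adult male C57BL/6 mice received either saline (3 libraries, labelled Control) or methamphetamine, MA, at doses that were raised each week over 3 weeks (3 libraries, labelled MA). No transgene, deletion or second agent is named for either group. The hippocampus was taken after the behavioral tests, with 1 library per mouse, and the labels give the tissue only as hippocampus, without the way it was dissected.

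The choroid plexus is a fold of epithelium and vessels that hangs in the brain ventricles and makes the cerebrospinal fluid. Its epithelial cells pump ions and water, carry folate and thyroid hormone from blood into the fluid, and are joined by leaky tight junctions. The epithelium lies next to the hippocampus along the lateral ventricle but is not part of its neuronal layers. In bulk tissue, more cells of a type and more RNA per cell cannot be told apart.

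The deposited values are named as RPKM, read counts scaled by gene length and library size, but they are log values and were taken as log2 of RPKM plus 1. All 6 libraries shared the same highest value, 12.30, and nearly the same distribution, so a value reflects the rank of a gene within its library. With no read totals given, depth per library is unknown. The library labelled MA replicate 3 stood apart in that it listed 0 rows at 0 and 397 rows at a lowest value of 0.000206, while the other libraries listed between 259 and 437 rows at 0. Control and MA below mean the libraries labelled so. The labels are in doubt, because the study reported the activity-induced genes Arc, Egr1, Fos and Nr4a1 as raised by MA, in RNA sequencing and in qPCR. In the libraries labelled MA these genes were lower, by differences of -1.80, -1.46, -1.61 and -1.45 on the log2 scale (limma adjusted p of 0.0181, 0.0181, 0.0315 and 0.0244). Whether the columns carry the right group names could not be settled from the table, and every direction given here would turn if the names were exchanged. All 16 hippocampal neuron markers looked up were found, and Hpca, a calcium sensor of hippocampal neurons, lay between 10.70 and 11.51 on the log2 scale in every library. Tests were run on the 13321 genes that reached 0.5, after the log was undone, in 3 or more of the 6 libraries. All 10 choroid plexus genes passed it, but Slc4a5 and Prlr reached that value in no control library, and Aqp1 and Cldn2 reached it in 1 of 3. These 4 genes would not have passed without the libraries labelled MA.

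Promoter windows of 6 of the 10 genes (Kl, Aqp1, Slc4a5, Otx2, Prlr and Cldn2) were matched by symbol in RefSeq on GRCm38.p6, with 11 windows of 300 bases each. The sequence TAATCC, the core bound by Otx homeodomain proteins, was searched on both strands because Otx2 is itself 1 of the 10 genes. It was present in 1 of the 11 windows and in 7.06% of all 32851 promoter windows. The 1 window belonged to an inner start of Otx2, and the match is shown in capitals within 30 bases of chr14:48665303-48665332 on the minus strand, with 205 bases between the match and the start.
Otx2: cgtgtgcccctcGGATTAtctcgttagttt
No match says only that these letters were not in the windows. The 250 bases before the start are shown for Kl and Cldn2, which held the most and the fewest CG dinucleotides among the first listed starts of the 6 genes, with each CG in capitals. Kl, at chr5:150952357-150952606 on the plus strand, held 13 CG, and Cldn2, at chrX:139800558-139800807 on the plus strand, held 4, where the median of all promoter windows was 6.
Kl: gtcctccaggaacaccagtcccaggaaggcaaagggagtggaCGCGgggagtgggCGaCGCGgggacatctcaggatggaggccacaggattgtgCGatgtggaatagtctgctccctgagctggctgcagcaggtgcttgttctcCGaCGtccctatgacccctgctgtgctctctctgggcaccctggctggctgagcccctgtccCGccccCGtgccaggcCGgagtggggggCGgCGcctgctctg
Cldn2: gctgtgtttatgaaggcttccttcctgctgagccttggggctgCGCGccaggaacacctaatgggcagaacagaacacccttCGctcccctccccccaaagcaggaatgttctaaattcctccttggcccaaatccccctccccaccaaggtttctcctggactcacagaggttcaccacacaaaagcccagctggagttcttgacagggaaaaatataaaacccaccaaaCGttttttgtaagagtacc
G and C made up 66.8% of the Kl window and 52% of the Cldn2 window, and the median of all promoter windows was 52.4%.

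The first question was how the 10 genes differed between the libraries labelled Control, from mice given saline, and those labelled MA. For each of the 10 genes, every library labelled MA lay above every library labelled Control, a pattern shown by 7.32% of the 13321 tested genes. The log2 difference, the mean of the MA libraries minus the mean of the control libraries, ranged from 1.27 for Prlr to 4.09 for Ttr, with a median of 1.68, while the median of all tested genes was -0.010. After back-transformation the mean of the MA libraries was between 3.39 and 14.2 times the mean of the control libraries. The median difference was 1.50 without MA replicate 3. At an adjusted p-value under 0.05 (limma, Benjamini-Hochberg over all tested genes), 7 of the 10 genes passed as higher in MA, where 0.165% of tested genes passed in that direction and 0.0976% passed as lower. Ttr, Otx2 and Prlr did not pass. With the p-value left unadjusted (under 0.05) and a log2 difference over 1 asked for, all 10 passed, where 0.465% of tested genes passed. The study, which used DESeq2, listed only upregulated genes as differential, and none of the 10 is on its list. The genes were selected on this same contrast, so these counts follow in part from the selection and are no test of the 10 genes. Slc4a5, Aqp1 and Cldn2, which are among the 7, also entered the fit only because of their MA libraries. The count of 7 also rested on single libraries, being 0 without Control replicate 1, 2 or 3 or without MA replicate 2, 5 without MA replicate 1 and 9 without MA replicate 3, and it was 0 when no filter on low values was applied.

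**Figure D1:**
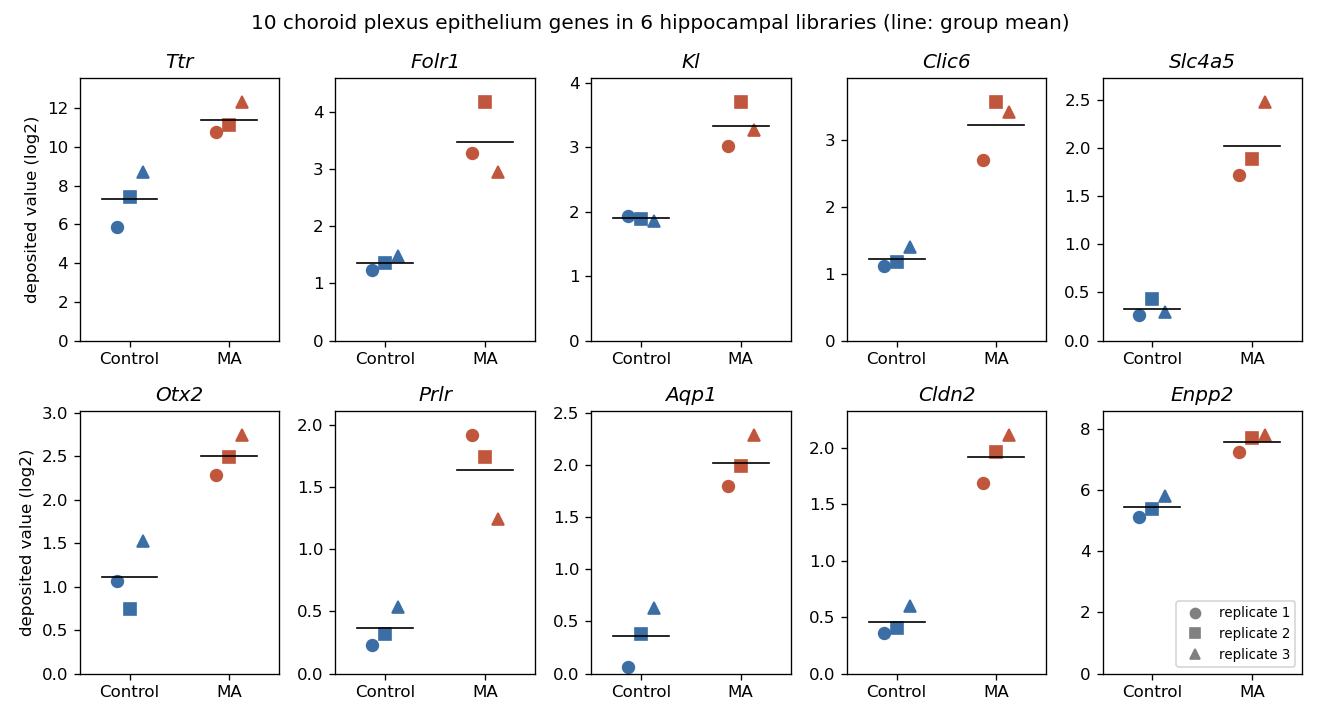
Deposited log2 value (vertical axis, one scale per panel) of each of the 10 genes in the 3 Control libraries (blue) and the 3 MA libraries (red), with marker shape for the replicate number and a line at the group mean. In every panel the 3 MA libraries lie above the 3 Control libraries, and the gap between the groups is smallest for Prlr (0.70) and largest for Ttr (2.08).

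Ttr, Enpp2 and Kl encode proteins that the epithelium releases into the cerebrospinal fluid. Ttr encodes transthyretin, the carrier of thyroxine and of retinol-binding protein, and is the most abundant product of choroid plexus epithelium. Ttr (ENSMUSG00000061808), on chromosome 18 of GRCm38 from 20665280 to 20674321, had log2 values of 5.87, 7.39 and 8.68 in Control replicates 1, 2 and 3 and of 10.77, 11.14 and 12.30 in MA replicates 1, 2 and 3. The control libraries alone spanned 2.81 on the log2 scale, the widest spread of the 10 genes, and the lowest MA library was still 2.08 above the highest control library. The means were 7.31 ± 1.41 and 11.40 ± 0.80 (SD, n = 3 each), and the difference of 4.09 placed Ttr in first place among all 13321 tested genes. Back-transformed, Ttr ran from 57.7 in Control replicate 1 to 410.3 in Control replicate 3, and from 1744 in MA replicate 1 to 5033 in MA replicate 3. By rank, Ttr stood at 1441, 493 and 194 among the 16060 rows of the 3 control libraries and at 21, 13 and 1 in the 3 MA libraries. In MA replicate 3 its value was the shared highest value of the table, so the common distribution sets an upper limit on Ttr there. Without MA replicate 3 its difference was 3.64.

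Enpp2 encodes autotaxin, a secreted enzyme that makes lysophosphatidic acid, and it is also made by oligodendrocytes and vessels of the brain. Enpp2 (ENSMUSG00000022425, chromosome 15 from 54838901 to 54952892) had log2 values of 5.12, 5.38 and 5.81 in the control libraries and of 7.22, 7.68 and 7.79 in the MA libraries. It was thus well detected in every library, and the 1.42 between the highest control and the lowest MA library exceeded the range within either group. Its means were 5.44 ± 0.35 and 7.56 ± 0.30 (SD, n = 3 each), a difference of 2.13. Of the other sources of Enpp2, the 9 oligodendrocyte markers had a median difference of -0.20 with 1 of 9 higher in MA. The 12 endothelial markers had a median of 0.080 with 10 of 12 higher in MA. An annotated gene on the opposite strand, Gm26684, overlaps Enpp2, and whether reads were counted by strand is not stated. Of 12 names of lysophosphatidic acid receptors and the phosphatases that break this lipid down, 9 were found, 6 were tested and 0 passed the adjusted threshold.

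Kl encodes klotho, a membrane protein that is shed into the fluid and acts as a co-receptor for the hormone FGF23. Kl (ENSMUSG00000058488, chromosome 5 from 150952607 to 150993817) had the tightest control values of the 10 genes, at 1.93, 1.89 and 1.86 on the log2 scale, against 3.02, 3.70 and 3.26 in the MA libraries. Its means were 1.89 ± 0.03 and 3.32 ± 0.34 (SD, n = 3 each), a difference of 1.43 that was far larger than the spread of the controls. Among the 6 tested receptors and sheddases that klotho works with, 0 passed the adjusted threshold (limma), where 0.263% of all tested genes did. Fgfr3, which was highest among them by difference at 0.62, had a limma adjusted p of 0.219. Fgfr1 differed by -0.23 (limma adjusted p = 0.458), with every MA library below every control library. Of the 6, 2 were higher in MA by their means.

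**Figure D2:**
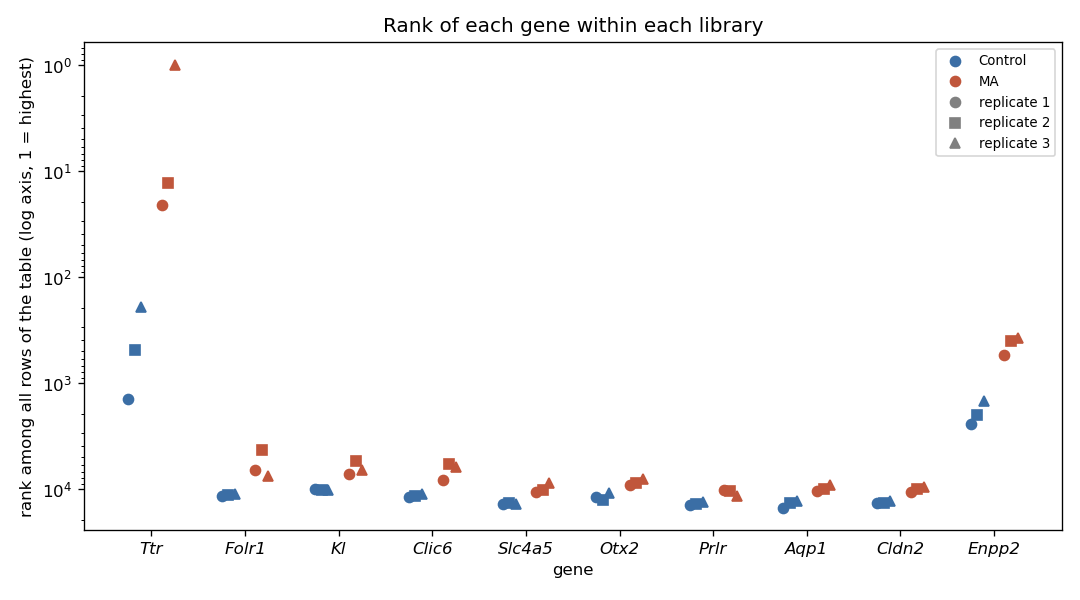
Rank of each of the 10 genes among the 16060 rows of the table (vertical log axis, 1 is the highest row) in the Control libraries (blue) and the MA libraries (red), with marker shape for the replicate number. Ttr lies at ranks 194 to 1441 in the Control libraries and 1 to 21 in the MA libraries, Enpp2 at 1510 to 2446 and 379 to 547, and the best rank of the other 8 genes is 4331 (Folr1 in MA replicate 2).

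Folr1 and Prlr are receptors at the surface of the epithelium. Folr1 encodes folate receptor alpha, which carries folate across the cell into the cerebrospinal fluid. Folr1 (ENSMUSG00000001827, chromosome 7 from 101858331 to 101870788) had log2 values of 1.24, 1.35 and 1.48 in the control libraries and of 3.28, 4.17 and 2.94 in the MA libraries. Its highest library was MA replicate 2 and its lowest MA library was replicate 3, the one in which Ttr was highest. The means were 1.36 ± 0.12 and 3.46 ± 0.63 (SD, n = 3 each), a difference of 2.10. Folr1 overlaps Anapc15 on the opposite strand, whose log2 means were 3.37 in the control and 3.44 in the MA libraries (limma adjusted p = 0.911), and counting by strand is not stated. Of the 14 genes of folate uptake and metabolism looked up, all were tested, 0 passed the adjusted threshold and the median difference was 0.016, with Slc19a1, the reduced folate carrier, at 0.31 (limma adjusted p = 0.423). Over all tested genes 0.263% passed in either direction.

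Prlr encodes the receptor for prolactin, a pituitary hormone. Prlr (ENSMUSG00000005268, chromosome 15 from 10177238 to 10349180) had log2 values of 0.23, 0.32 and 0.54 in the control libraries and of 1.92, 1.74 and 1.24 in the MA libraries. The annotated gene Gm21973 overlaps Prlr on the same strand, so reads of the overlap could be counted for either. Prlr was the lowest of the 10 genes in MA, and its order among the MA libraries was the reverse of that of Ttr. The means were 0.36 ± 0.16 and 1.63 ± 0.35 (SD, n = 3 each), a difference of 1.27, the smallest of the 10. Of the 9 tested genes of hormone and signal transfer around this receptor, 0 passed the adjusted threshold (limma). Over all tested genes 0.263% passed in either direction. The list held the pituitary hormone genes Prl and Gh themselves, which encode prolactin and growth hormone. Prl had log2 values of 1.17, 0.28 and 2.33 in the control libraries and of 2.08, 7.06 and 2.21 in the MA libraries, so that 1 library, MA replicate 2, stood far above the rest. Gh had log2 values of 3.45, 2.41 and 4.66 in the control libraries and of 4.68, 9.06 and 5.24 in the MA libraries, with the same library highest. Their part in the result for Prlr was not tested, and Prlr itself was not highest in MA replicate 2.

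The next 3 genes move water and ions. Aqp1 encodes the water channel of the apical membrane. Aqp1 (ENSMUSG00000004655, chromosome 6 from 55336432 to 55348555) had log2 values of 0.06, 0.38 and 0.63 in the control libraries and of 1.79, 1.99 and 2.28 in the MA libraries. In Control replicate 1 it was close to 0, and the lowest MA library was 1.16 above the highest control library. The means were 0.36 ± 0.29 and 2.02 ± 0.25 (SD, n = 3 each), a difference of 1.66. At such low levels the offset of 1 compresses the difference, and the back-transformed means of 0.297 and 3.10 differed 10.4 times.

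Slc4a5 encodes a sodium bicarbonate cotransporter of the epithelium. Slc4a5 (ENSMUSG00000068323, chromosome 6 from 83219828 to 83304945) had log2 values of 0.27, 0.44 and 0.29 in the control libraries and of 1.72, 1.88 and 2.48 in the MA libraries. All 3 control libraries were under the minimum of the filter and all 3 MA libraries were over it. The means were 0.33 ± 0.09 and 2.03 ± 0.40 (SD, n = 3 each), a difference of 1.70, and the back-transformed means of 0.260 and 3.18 differed 12.3 times.

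Clic6 encodes a protein of the chloride intracellular channel family. Clic6 (ENSMUSG00000022949, chromosome 16 from 92485736 to 92541243) had log2 values of 1.11, 1.17 and 1.39 in the control libraries and of 2.70, 3.56 and 3.41 in the MA libraries. MA replicates 2 and 3 were close to each other and above replicate 1. The annotated gene 2410124H12Rik overlaps Clic6 on the same strand, so reads of the overlap could be counted for either. The means were 1.22 ± 0.15 and 3.22 ± 0.46 (SD, n = 3 each), a difference of 1.999. Its relatives of the same family in the lists, Clic1, Clic4 and Clic5, had differences of -0.19, -0.41 and -0.29 and did not pass the adjusted threshold (limma adjusted p of 0.607, 0.238 and 0.461).

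Among 19 genes of ion and water transport used in fluid secretion, all tested, 1 passed the adjusted threshold, Slc4a2, where 0.263% of all tested genes passed in either direction. Slc4a2 encodes the chloride bicarbonate exchanger of the basolateral membrane and is made in many other cells. Its log2 values were 3.36, 3.33 and 3.30 in the control libraries and 4.16, 3.94 and 4.03 in the MA libraries, a rise of 0.71 (standard error 0.09, limma adjusted p = 0.0394). It did not pass when any 1 of the control libraries, MA replicate 1 or MA replicate 2 was left out. The median of the 19 genes was 0.14, and 12 of them were higher in MA. The cotransporter gene Slc12a2 differed by 0.13 with overlapping groups (limma adjusted p = 0.693).

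Cldn2 encodes claudin-2, which forms cation and water pores in the tight junctions between the epithelial cells. Cldn2 (ENSMUSG00000047230, chromosome X from 139800828 to 139811386) had log2 values of 0.36, 0.40 and 0.60 in the control libraries and of 1.69, 1.96 and 2.11 in the MA libraries. The groups were 1.09 apart at their nearest points, more than the range within either group. The means were 0.45 ± 0.13 and 1.92 ± 0.21 (SD, n = 3 each), a difference of 1.47. Of the 11 tested tight junction genes, 0 passed the adjusted threshold, where 0.263% of all tested genes passed in either direction. Cldn1, which is also made by choroid plexus epithelium, differed by 1.04 (limma adjusted p = 0.0574), while Tjp1 and Ocln, which are shared by many barriers, differed by -0.064 and 0.015. Tjp3 and Cldn5 differed by 0.50 and 0.30, with every MA library above every control library (limma adjusted p of 0.477 and 0.241). Cldn10 differed by -0.46, with every MA library below every control library (limma adjusted p = 0.440). Of the 11, 6 were higher in MA by their means.

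Otx2 encodes the homeodomain factor that forms and maintains the choroid plexus. Otx2 (ENSMUSG00000021848, chromosome 14 from 48657677 to 48673819) had log2 values of 1.06, 0.74 and 1.52 in the control libraries and of 2.29, 2.49 and 2.74 in the MA libraries. Its controls varied more than its MA libraries, with Control replicate 3 only 0.77 below the lowest MA library. The means were 1.11 ± 0.39 and 2.51 ± 0.23 (SD, n = 3 each), a difference of 1.40. The antisense gene Otx2os1 and the gene Gm49154 overlap it, and reads of overlapping genes may not be told apart. Of 6 tested Otx relatives and dorsal midline factors 0 passed the adjusted threshold, where 0.263% of all tested genes passed in either direction. Msx1, a homeobox gene of the dorsal midline that is also made by the epithelium, differed by 0.75 (limma adjusted p = 0.144) and Otx1 by -0.079 (limma adjusted p = 0.879). Pax6 differed by -0.66 (limma adjusted p = 0.133), with every MA library below every control library. Of the 6, 3 were higher in MA by their means. Every MA library lay above every control library in 2 of them and below in 2. These patterns were shown by 7.32% and 10.2% of all tested genes. Lmx1a, another factor of this lineage, was under the filter, with log2 values of at most 0.07 in the control libraries and between 0.42 and 0.72 in the MA libraries.

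Levels per gene length spanned a wide range. On the log2 scale, the means of the MA libraries followed the order Ttr (11.40), Enpp2 (7.56), Folr1 (3.46), Kl (3.32), Clic6 (3.22), Otx2 (2.51), Slc4a5 (2.03), Aqp1 (2.02), Cldn2 (1.92) and Prlr (1.63). Ttr and Enpp2 stood apart from each other and from the rest by more than the SD of either gene. Folr1, Kl and Clic6 lay within the larger SD of each other, as did Slc4a5, Aqp1 and Cldn2, and Prlr lay within its own SD of Cldn2 but not of Aqp1. In the control libraries the order was Ttr (7.31), Enpp2 (5.44), Kl (1.89), Folr1 (1.36), Clic6 (1.22), Otx2 (1.11), Cldn2 (0.45), Prlr (0.36), Aqp1 (0.36) and Slc4a5 (0.33), so that Ttr and Enpp2 led in both groups. Summed over the 10 genes, the back-transformed level was between 98.6 and 475 in the control libraries and between 1927 and 5297 in the MA libraries, most of it Ttr.

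How the 10 genes varied together was described after the group means had been subtracted, because the groups form separate clusters for every gene. Among the controls, 8 of the 10 genes were highest in Control replicate 3 and 8 were lowest in Control replicate 1. Kl, whose control values hardly differed, and Slc4a5, which was highest in Control replicate 2, were the genes not highest in Control replicate 3. Among the MA libraries, 8 of the 10 genes were lowest in MA replicate 1, and the highest library was MA replicate 3 for 6 genes (Ttr, Slc4a5, Otx2, Aqp1, Cldn2 and Enpp2), MA replicate 2 for 3 (Folr1, Kl and Clic6) and MA replicate 1 for Prlr. The shares of all tested genes that were highest or lowest in these libraries were not counted. Over the 45 pairs of genes, the median Pearson r of the deviations was 0.49 and the median Spearman rho 0.37, with 32 pairs above 0 and 13 below. The pairs ran from -0.90 for Slc4a5 with Prlr to 0.98 for Ttr with Aqp1. These correlations rest on 6 deviations that share 2 group means and the normalization of the table. Cldn2, Enpp2 and Aqp1 had the highest median r with the other 9 genes, at 0.79, 0.75 and 0.66, and Prlr had the lowest at -0.18, being above 0 with 1 of 9.

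**Figure D3:**
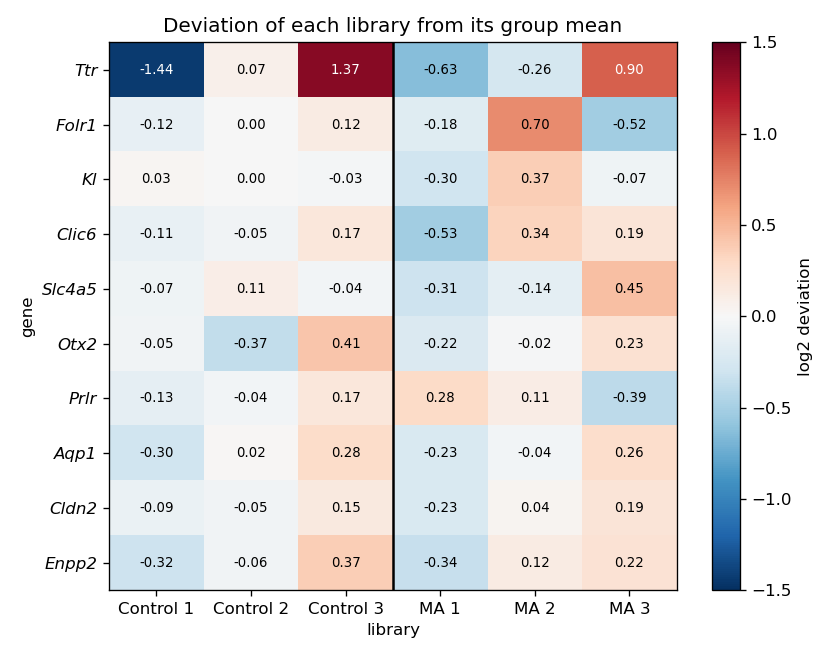
Deviation of each library from the mean of its own group (colour and printed number, log2) for the 10 genes (rows) in the 6 libraries (columns, Control left of the line and MA right). Ttr has the largest deviations, Control 3 is positive for 8 of the 10 genes, and Folr1, Kl and Prlr are negative in MA 3 where Ttr, Slc4a5, Otx2, Aqp1, Cldn2 and Enpp2 are positive.

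The genes outside the 10 whose pattern over the 6 libraries was most like the mean z-score of the 10 were found among 891 tested genes with a range of at least 1 on the log2 scale. The 10 nearest had a Pearson r between 0.964 and 0.989 and a Spearman rho between 0.714 and 1, which are descriptions of 6 points in 2 clusters. Of these, 6 stood on the list of other choroid plexus genes, namely Ace, F5, Slc13a4, Cldn1, Msx1 and Mfrp. The share of the 891 genes that stood on that list was not counted. The pattern of the 10 follows the contrast on which they were selected, so this likeness is no separate support. Ace encodes the angiotensin-converting enzyme, F5 coagulation factor V and Slc13a4 a sulfate transporter. The other 4 were Oca2, Sult1a1, Cpne2 and Lhb. F5, Mfrp and Oca2 were under the minimum of the filter in every control library, and Cldn1 and Lhb in some. They would not have been candidates without their MA libraries. Lhb encodes the beta chain of luteinizing hormone, a pituitary product, and had log2 values of 0.26, 0.58 and 0.65 in the control libraries and of 1.31, 2.20 and 1.89 in the MA libraries. After the group means were subtracted, the 10 nearest genes had an r between 0.895 and 0.993, and F5, Msx1 and Steap1 were the choroid plexus genes among them. The others, Rps15a-ps4, Tmsb15l, Sema3b, Lyrm9, E2f3, Larp1b and Lrrc26, stood on none of the lists. Rps15a-ps4 had the highest r, and Lrrc26 was lower in MA by its means (-0.44).

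A list of 35 further names of choroid plexus epithelium genes, written from general knowledge, gave 33 rows and 30 tested genes. Of the 30, 3 passed the adjusted threshold, all higher in MA (0.165% of tested genes passed in that direction), and 21 had an unadjusted limma p-value under 0.05 and a log2 difference above 1 (0.465% of tested genes). All 30 were higher in MA by their means, with a median difference of 1.18, and 26 had every MA library above every control library, where 7.32% of tested genes did. Of the 30, Kcne2, Steap1, Krt18, Wfdc2, Prr32 and Cldn1 reached the minimum in some but not all control libraries. They would not have passed the filter without the libraries labelled MA. Another 4 (F5, Mfrp, Krt8 and Col8a1) reached the minimum in no control library and were tested only because of their MA libraries. The 3 genes were Ace, which rose by 1.59 (standard error 0.20, limma adjusted p = 0.0332), Mfrp, which rose by 1.70 (standard error 0.22, limma adjusted p = 0.0394) and is 1 of these 4, and Slc13a4, which rose by 1.20 (standard error 0.16, limma adjusted p = 0.0437). The count of 3 was 9 without MA replicate 3, 1 without MA replicate 1, and 0 without MA replicate 2 or any 1 of the control libraries. In this list 28 of the 33 genes found were highest in MA replicate 3 among the MA libraries, against 6 of the 10 genes described above. The same held for 11 of 15 ependymal, 7 of 9 oligodendrocyte and 0 of 9 astrocyte markers. The share over all tested genes was not counted. Kcne2 and Kcnj13, potassium channel genes of the apical membrane, differed by 2.07 and 1.73 without passing (limma adjusted p of 0.0975 and 0.0645). Kcne2 had log2 values of 0.42, 0.73 and 1.11 in the control libraries and of 2.27, 2.53 and 3.66 in the MA libraries. Tmem72 and Slc29a4 differed least, by 0.085 and 0.051, with overlapping groups.

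Among the genes that share the cargo of Ttr, 15 of 16 genes of retinol and thyroid hormone handling were tested, with a median difference of 0.15. Of the 15, 0 passed the adjusted threshold, where 0.263% of all tested genes passed in either direction. Rdh5, which encodes a retinol dehydrogenase, differed by 1.15 (limma adjusted p = 0.265). Rbp4, which encodes the plasma retinol carrier that binds transthyretin, differed by 0.15 with overlapping groups. Dio3, which encodes the enzyme that inactivates thyroid hormone, had log2 values of 0.74, 0.53 and 0.65 in the control libraries and of 2.30, 2.20 and 0.95 in the MA libraries (limma adjusted p = 0.297). Dio2 differed by -0.54 (limma adjusted p = 0.220), with every MA library below every control library. Of the 15, 8 were higher in MA by their means. Every MA library lay above every control library in 4 of them and below in 2. These patterns were shown by 7.32% and 10.2% of all tested genes.

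Markers of other cell types and tissues were read in the same libraries. Of 7 red blood cell names, 6 were found and 5 tested, and 3 of the 5 passed the adjusted threshold as higher in MA, where 0.165% of tested genes did. None of the 3 passed when any 1 of the control libraries, MA replicate 1 or MA replicate 2 was left out. Hba-a1, Hba-a2 and Hbb-bs, the genes of adult globin chains, rose by 1.13, 1.06 and 0.97 (limma adjusted p of 0.0315, 0.0327 and 0.0394), and Hba-a1 and Hba-a2 are near-identical copies between which reads may be split. The summed back-transformed level of the list was between 1599 and 2024 in the control libraries and between 3319 and 4378 in the MA libraries, and Slc4a1, a red cell marker, was near 0 in all. All 14 thalamic and habenular markers were higher in MA by their means, with a median difference of 0.70, but 0 passed and 1, Calb2, had every MA library above every control library, where 7.32% of tested genes did. Their summed level was between 62.0 and 115 in the control libraries and between 107 and 187 in the MA libraries, and 1 of the 14 was highest in MA replicate 3, the library where Ttr was highest. For the 13 tested ependymal and motile cilium markers, some of which the epithelium also makes, the median difference was 0.30. Of these, 11 were higher in MA by their means and 0 passed, with summed levels of 41.6 to 64.6 and of 49.8 to 87.7. For the 16 meningeal and fibroblast markers the median was 0.061, 14 were higher in MA by their means and 0 passed. Their summed levels were 1001 to 1454 in the control libraries and 1097 to 1595 in the MA libraries. In either direction 0.263% of all tested genes passed. Within this list Dcn, which encodes decorin, had the largest difference at 1.30 (limma adjusted p = 0.140), while Col1a1 and Lum differed by 0.020 and 0.073.

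The 12 endothelial and 9 pericyte and smooth muscle markers had median differences of 0.080 and 0.11, and 0 of each passed. By their means 10 of the 12 and 6 of the 9 were higher in MA. Of the 16 hippocampal neuron markers 0 passed, the median was -0.15, and Neurod6, Pou3f1 and Wfs1 had every MA library below every control library, a pattern shown by 10.2% of tested genes. By their means 4 of these 16 were higher in MA. Astrocyte, oligodendrocyte and microglia markers had medians of -0.086, -0.20 and -0.018 over 9, 9 and 10 genes, and 0 of each passed. Higher in MA by their means were 2 of 9, 1 of 9 and 5 of 10. Over all tested genes 0.263% passed in either direction. The part of the blood, thalamic and pituitary genes in the differences of the 10 choroid plexus genes was not tested.

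**Figure D4:**
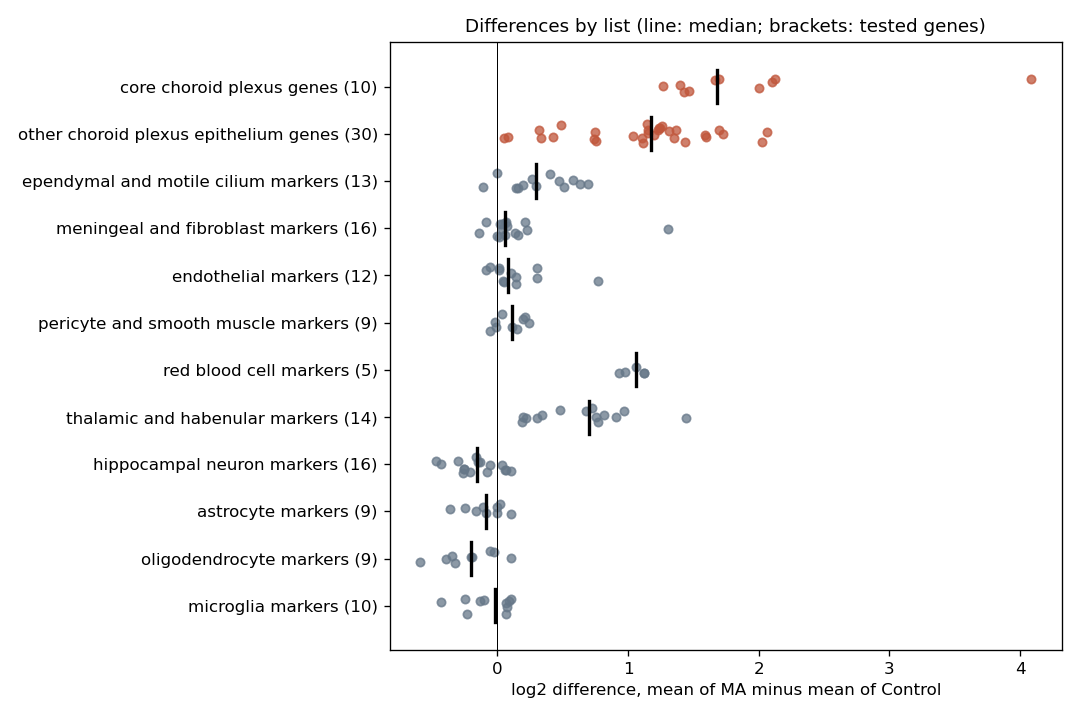
Log2 difference, mean of the MA libraries minus mean of the Control libraries (horizontal axis), of each tested gene in 12 lists (rows), with a line at the median and the number of tested genes in brackets. The 10 core genes (median 1.68) and the 30 other choroid plexus genes (median 1.18) lie to the right of 0, the red blood cell list has a median of 1.06 and the thalamic list of 0.70, and the neuron, astrocyte, oligodendrocyte and microglia lists lie around 0.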

How the data were processed

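Hippocampal RNA was analysed in 3 libraries of saline-treated mice and 3 libraries of MA-treated mice. According to the methods of the study, Hisat2 was the aligner and featureCounts the counter, and FPKM followed from gene length. The submitters' processing notes list Bowtie 0.12.2, mm8 and mm9. The build of the table is not given in the sources used here. The values the authors deposited are named as RPKM but lie on a log2 scale with a common distribution, steps that are not described. Coordinates are from GENCODE M21 on GRCm38 by Ensembl identifier, for location only.

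The deposited values were fitted with limma 3.58.1 in R 4.3.3 (lmFit, eBayes with trend, MA against Control, no covariate) over 13321 genes (back-transformed value of 0.5 or more in 3 or more libraries), with Benjamini-Hochberg adjustment. DESeq2, which the authors used, needs counts and was not run. The script was tested on simulated data. The genes, lists and tests were chosen with earlier results of these data known. Genes named besides the 10 were, per list, up to 4 that passed by smallest p, or, where none passed, up to 4 with the largest difference, and the 10 nearest by correlation. Other genes were named after their values were seen. A two-sided permutation test of 3 against 3 cannot go below 0.1, so none was run. No batch or date is given. P-values measure the spread between these libraries only.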

Additional observations from a re-analysis of the deposited data

How the results depend on the processing

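All 10 genes stayed higher in the libraries labelled MA in each of 100 differences recomputed over the offsets, scalings and left-out libraries. For each gene every MA library lay above every control library, so leaving out a library or changing the offset could not turn a sign. Those signs therefore add no support. The median difference of 1.68 was 2.58 with an offset of 0.1 and 2.78 with 0.01, since a smaller offset widens differences of low genes, and between 1.50 and 1.81 with 1 library left out. The median r of the deviations was between 0.42 and 0.61 with 1 library left out, 0.41 with an offset of 0.1 and 0.37 with 0.01. Calls (limma, adjusted) depended more on the setting. For all tested genes, of which 35 passed, 3 passed with no filter, 20 with a minimum mean of 5, 586 with library weights, and 0 to 257 with 1 library left out. For the 10 genes, of which 7 passed, the counts were 6 with offsets of 0.1 and 0.01, and 0 with no filter. They were 10 with library weights, 2 with a minimum mean of 5, which only 4 reached, and 0 to 9 with 1 library left out. For the 30 other choroid plexus genes, of which 3 passed, the counts were 1 and 0 with offsets of 0.1 and 0.01, 0 with no filter, 1 with a minimum mean of 5, 21 with library weights, and 0 to 9 with 1 library left out. For the other lists together, where 4 passed, the counts were 0 with no filter, 21 with library weights, and 0 to 13 with 1 library left out. With the replicate number as a block, 15 of all genes, 5 of the 10 genes, 2 of the other choroid plexus genes and 0 of the other lists passed. Libraries of the same number did not pair, as their deviations correlated across genes at -0.197, -0.242 and -0.337. Without filter, 16060 rows were tested instead of 13321, and why fewer calls passed was not tested. The depth of the libraries is unknown.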
